A study of Mus musculus with 12 samples.

Results

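The cytosolic ribosomal protein genes were examined in sorted mouse neutrophils. Members were chosen by name and by their counts: the protein-coding genes named Rpsa, Rplp0, Rplp1 or Rplp2, or named Rps or Rpl followed by a digit, leaving out the Rps6k kinases and names with -ps. Of 86 such genes, 83 had 10 or more counts in at least 4 of the 12 libraries, among 55335 genes in the count files. By role, 31 were small subunit proteins, 43 large subunit proteins, 3 proteins of the stalk and 4 paralogs of another member (Rpl3l, Rpl22l1, Rpl36al and Rps27l). The remaining 2 carry a matching name without being ribosomal proteins: Rps19bp1, a protein that binds Rps19 and Sirt1, and Rpl7l1, a nucleolar relative of Rpl7.

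Each cytosolic ribosome holds a small subunit, which reads the mRNA, and a large subunit, which joins amino acids. Most ribosomal proteins are made in equal numbers, and their mRNAs share a short start of pyrimidines, the 5′ terminal oligopyrimidine (TOP) motif, through which mTORC1 and Larp1 set their translation. Neutrophils make most of their granule proteins in the bone marrow, and mature neutrophils are known for their low content of ribosomes.

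The study sorted neutrophils (CD45+ CD11b+ Ly6G+ F4/80-) from mammary tumors and bone marrow of mice aged 10 weeks, all of FVB background and kept in SOPF housing, and sequenced their RNA after depletion of ribosomal RNA. There were 4 libraries of neutrophils from tumors of PyMT mice (PyMT TANs, tumor-associated neutrophils), 4 from tumors of mice with the PyMT-Cxcr2-/- genotype, and 4 from marrow of tumor-free FVB WT mice (WT BM neutrophils, or marrow). The PyMT oncogene is driven in mammary epithelium by the MMTV promoter, and Cxcr2, the receptor for CXC chemokines that draws neutrophils out of the marrow, was deleted in the whole animal. Both TAN types differ from the marrow cells in tissue, in the transgene and in preparation, which cannot be told apart. Tumors were minced and digested with a dissociation kit, and marrow cells were spun out of the leg bones with no digestion described. The labels number the samples of a group without naming mice. For the comparison of the TAN types the paper gives its group size in animals, as many as there are libraries per group. Its main text gives no such number for the marrow samples. The p-values measure the spread between these samples. In bulk RNA, fewer cells of a type and less RNA per cell cannot be told apart either.

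The libraries held 25032704 to 51351569 counts on genes. Cxcr2 gave 1196 ± 224 CPM (counts scaled by library size, with TMM factors; mean ± SD, n = 4 in every group) in PyMT TANs, then 9.38 ± 0.58 in PyMT-Cxcr2-/- TANs, against 2035 ± 195 in marrow, as the labels say. Of 8 neutrophil markers, 7 were lower in each TAN type than in marrow, and the list summed to 10400 to 16700 CPM in PyMT TANs, then 18100 to 29700 in PyMT-Cxcr2-/- TANs, against 77800 to 103000 in marrow. Cxcr2 is 1 of these 8, and its low value in PyMT-Cxcr2-/- TANs follows from the genotype. The 8 markers of immature neutrophils were lower in each TAN type too, beside 23.2% and 25.1% of all genes called lower. Lymphocyte markers summed to 11.1 to 51.1 CPM in TANs and 223 to 260 CPM in marrow. Of those tested, 1 of 5 was called lower in PyMT TANs and 2 of 6 in PyMT-Cxcr2-/- TANs, near these shares of all genes. Proliferating cell markers were lower in 2 and 5 of 5. All 8 macrophage markers were higher in both TAN types, beside 30.1% and 34.4% of all genes called higher. Their summed levels were 1320 to 2700, 1310 to 2190 and 238 to 332 CPM. All 6 tested of 7 mammary epithelium markers were higher too, at 48.7 to 442, 82.1 to 327 and 0.06 to 0.516 CPM, with Csn3, Krt8 and Lalba at 0 in every marrow library. The sort gate leaves out F4/80+ and CD45- cells. The part of these cells in the results below was not tested.

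The count filter left 3 genes out. Rpl10l, a testis paralog of Rpl10, had 14 and 15 counts in PyMT TANs 2 and 3, 1 in PyMT TANs 4 and 0 in the other 9 libraries. Rpl39l had 41 counts in PyMT TANs 3 and 12 in PyMT-Cxcr2-/- TANs 3 as its only values of at least 10, and Rps27rt had 29, 14 and 12 counts in PyMT TANs 3, PyMT TANs 4 and WT BM 4. Of the genes kept, Rpl36al and Rps10 passed in the fewest libraries. Rpl36al had 0 counts in PyMT TANs 3 and 15 to 59 in the other libraries, and Rps10 had 4 counts in PyMT TANs 3 and 16 to 121 in the others. These 2 passed in 11 libraries and the other 81 members in all 12, so no member entered through 1 group alone.

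Per base of mRNA, the highest member was Rps27 at a mean of 395.1 RPKM (CPM divided by the mRNA length in kilobases) over 12 libraries. Rps9 followed at 345.4 and Rpl9 at 211.5 RPKM, and Rpl3l, Rps10 and Rpl36al stood last at 1.91, 1.37 and 0.56 RPKM. Rps10 shares exons with RPS10-NUDT3 and Rpl36al with Gm49383 on the same strand, where reads that match both genes are not assigned to either. Many other levels are uncertain too, because ribosomal protein genes have near-identical pseudogenes: 72 of 83 members shared at least 1 window of 120 bases of mRNA with another gene, and 20 shared over 50% of their windows. In Rps27 the shared part was 98.2%, in Rpl9 83.4% and in Rps9 18.0%. Reads that matched several places equally well were 6.07% to 8.72% of all reads in PyMT TANs, then 6.20% to 7.01% in PyMT-Cxcr2-/- TANs, against 9.22% to 11.4% in marrow, and they are not in the gene counts.

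The members took a small part of the counts on genes and a larger one in TANs than in marrow. In PyMT TANs they held 0.546%, 0.73%, 0.714% and 0.798% of the counts on genes in libraries 1 to 4 (0.697% ± 0.107). PyMT-Cxcr2-/- TANs gave 0.646%, 0.607%, 0.437% and 0.429% (0.53% ± 0.113), and WT BM neutrophils 0.352%, 0.35%, 0.354% and 0.396% (0.363% ± 0.022). All 8 TAN libraries lay above all 4 marrow libraries, and the TAN types overlapped, since PyMT TANs 1 lay below PyMT-Cxcr2-/- TANs 1 and 2. As a share of all reads, unassigned ones included, PyMT-Cxcr2-/- TANs 3 and 4 (0.188% and 0.189%) came down to the highest marrow library (0.189%), so that the PyMT-Cxcr2-/- and marrow groups overlapped, and PyMT TANs, at 0.237% to 0.347%, remained above marrow. A share of counts is scaled by library totals, and the typical gene also lay above marrow on that scale. The median log2 fold change over all genes tested was then 0.53 in PyMT TANs and 0.27 in PyMT-Cxcr2-/- TANs, and that of the members 1.02 and 0.60.

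**Figure D1:**
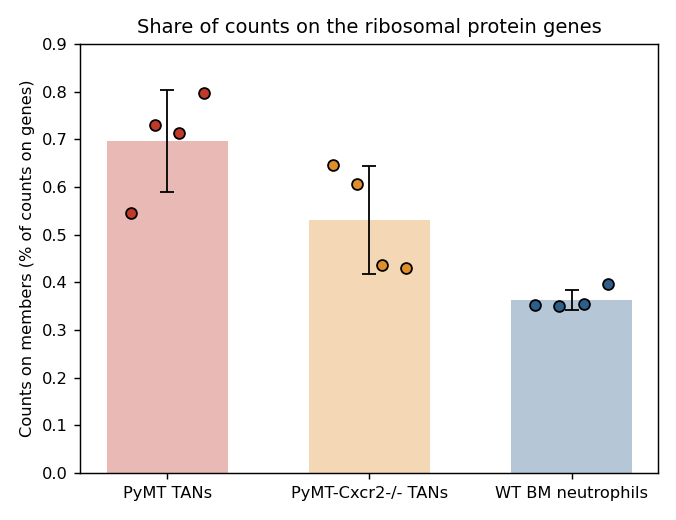
Share of all counts on genes that fell on the 83 members, in percent, with 1 point per library, bars at the group mean and whiskers of 1 SD (n = 4). The TAN libraries reach from 0.429% to 0.798% and the marrow libraries from 0.35% to 0.396%.

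The marker sums were set beside the share. The macrophage marker sum was 2144, 2191, 1681 and 1314 CPM in PyMT-Cxcr2-/- TANs 1 to 4, highest in the 2 libraries with the higher share. The epithelial sum was 245.9, 326.5, 82.09 and 117.2 CPM in the same order. In PyMT TANs 1 to 4 the macrophage sum was 1316, 2208, 2698 and 1856 CPM and the epithelial sum 48.68, 65.17, 300.3 and 442.0 CPM. Library 1 was lowest in the share and in both of these sums. Library 4, of highest share, had the second lowest macrophage sum, and library 2 had a higher share than library 3 with lower sums. The neutrophil marker sum was 16710, 11550, 13090 and 10450 CPM in PyMT TANs 1 to 4, in reverse order of the share. In PyMT-Cxcr2-/- TANs 1 to 4 it was 19540, 18090, 21790 and 29670 CPM, higher in the 2 libraries with the lower share. In marrow, library 4, of highest share, had the second highest neutrophil sum (96360 CPM). The part of any of these cell types in the share was not tested. The 300 pseudogene rows with -ps, which could catch reads of members, held 0.00869% to 0.0136% of counts in TANs and 0.0033% to 0.00538% in marrow. Reads that match a member and a pseudogene equally well are in neither count, and the part of pseudogenes in the share was not tested.

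The first comparison asks how neutrophils of a PyMT tumor differ from those of the marrow. Of the 83 members, 39 were called higher in PyMT TANs (47.0%) and 4 lower (4.82%), where a call needs a fold of at least 1.5 and an adjusted p under 0.05 (edgeR, quasi-likelihood test, Benjamini-Hochberg over all genes). Over the 17153 genes tested, 53.3% were called, 30.1% higher and 23.2% lower. The members were thus called about as often as other genes, and their calls were upward in 39 of 43. Their median log2 fold change was 0.57, against 0.09 for all genes tested, and 68 of 83 values lay above 0. With library totals in place of TMM factors 62 were called higher and 0 lower, and over all genes the higher part of the calls went from 56.4% to 72.8%. That scaling moved the median of all genes to 0.53 and of the members to 1.02, and the gap between them was 0.48 with TMM factors and 0.49 with totals. Without a filter on low counts the median over all genes rose to 0.52 and the members lay at 0.48, so the gap rests on which low genes are tested.

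The second comparison sets PyMT-Cxcr2-/- TANs against the same 4 marrow libraries, so both comparisons share their controls. Here tissue, preparation, transgene and loss of Cxcr2 differ at once and cannot be told apart. Here 34 members were called higher (41.0%) and 5 lower (6.02%), beside 59.5% of 17732 genes called, 34.4% higher and 25.1% lower. The median was 0.41 for the members and 0.09 for all genes tested, and 60 of 83 lay above 0. Without a filter both medians were 0.42. The groups did not overlap for 44 members higher and 5 lower in PyMT TANs, beside 28.7% and 29.6% of all genes, and for 35 higher and 14 lower in PyMT-Cxcr2-/- TANs, beside 32.2% and 33.8%.

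**Figure D2:**
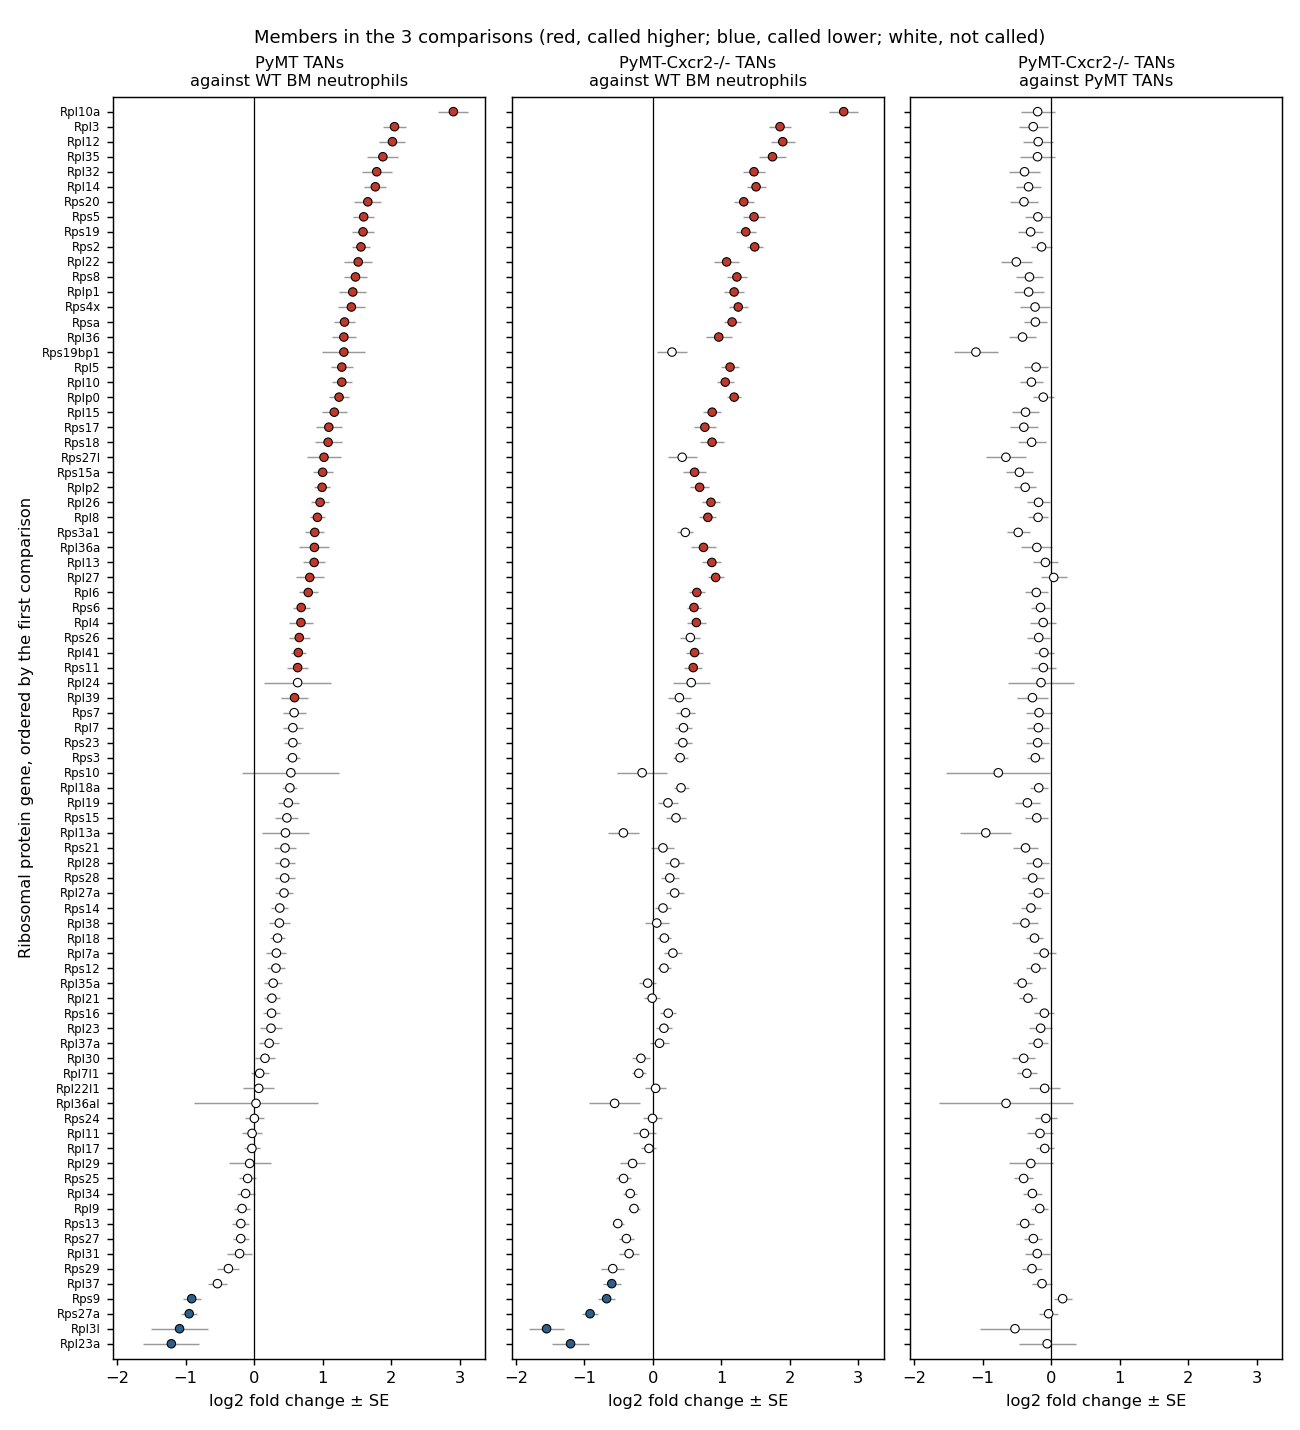
Log2 fold change with its standard error for each of the 83 members in the 3 comparisons, ordered by PyMT TANs against WT BM neutrophils; red points were called higher, blue points lower and white points not called. Most points lie right of 0 in the first 2 panels, from -1.21 to 2.91 and from -1.55 to 2.79, and 81 of 83 lie left of 0 in the third, with none called.

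Sequence around the start site was read from RefSeq promoters (GRCm38.p6), which held 63 of 83 members. A run of at least 6 pyrimidines within 15 bases of the start on the sense strand was found in 34 of 63 members (54.0%) and in 29.1% of 27025 promoters. It was found in 16 of 29 members called higher in PyMT TANs and in 18 of the other 34. From 250 bases before to 50 after the start, on both strands, CTTTCC was in 30 of 63 (47.6%; all promoters 26.3%), CCGGAAG, an ETS factor motif, in 24 (38.1%; 9.12%), AAGATGGCG, the YY1 motif, in 4 (6.35%; 1.49%) and TATAAA in 6 (9.52%; 14.2%). CTTTCC is itself made of pyrimidines and can lie within such a run. The 30 bases around the start are shown for 4 members that rose and for Rps9, Rpl3l and Rpl37, which have an entry and were called lower in at least 1 comparison, with runs of at least 6 pyrimidines in capitals:
Rpl10a (chr17:28328456-28328485, plus): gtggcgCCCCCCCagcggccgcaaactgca
Rpl12 (chr2:32961697-32961726, plus): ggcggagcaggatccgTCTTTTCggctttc
Rpl35 (chr2:39005117-39005146, minus): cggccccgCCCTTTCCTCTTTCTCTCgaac
Rpl14 (chr9:120571502-120571531, plus): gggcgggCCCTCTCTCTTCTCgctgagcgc
Rps9 (chr7:3704026-3704055, plus): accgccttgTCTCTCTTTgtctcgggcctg
Rpl3l (chr17:24727811-24727840, plus): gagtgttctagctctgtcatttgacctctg
Rpl37 (chr15:5116598-5116627, plus): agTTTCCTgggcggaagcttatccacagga
The longest run had 18 bases in Rpl35, 14 in Rpl14, 9 in Rps9, 7 in Rpl10a and Rpl12 and 6 in Rpl37, and Rpl3l had none in this window.

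Among large subunit proteins, 20 of 43 were called higher in PyMT TANs (46.5%, beside 30.1% of all genes) and 19 in PyMT-Cxcr2-/- TANs (44.2%, beside 34.4%). The member with the largest change was Rpl10a, the protein of the L1 stalk through which spent tRNA leaves the ribosome. Rpl10a (ENSMUSG00000037805.15, chr17:28328471-28331033, plus strand, GRCm38) gave 24, 45.3, 39.4 and 40.9 CPM in PyMT TANs, then 40.4, 41.7, 27.5 and 21.2 CPM in PyMT-Cxcr2-/- TANs, against 5.61, 4.71, 4.82 and 5.72 CPM in marrow. Every TAN library was above every marrow library, the lowest at 21.2 and the highest marrow value at 5.72 CPM. The log2 fold change was 2.91 ± 0.22 (SE; edgeR quasi-likelihood test, adjusted p = 1.12e-06) in PyMT TANs and 2.79 ± 0.22 (adjusted p = 1.38e-07) in PyMT-Cxcr2-/- TANs. Rpl10a shares 86.7% of its mRNA windows with other genes and overlaps CT025652.2 on the opposite strand.

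Rpl3, which lies beside the peptidyl transferase centre, and Rpl12, at the base of the stalk, came next. Rpl3 (chr15:80077791-80091868, minus strand) gave 75.7, 114.1, 122.4 and 130 CPM in PyMT TANs, then 112.5, 112.0, 73.6 and 71.7 CPM in PyMT-Cxcr2-/- TANs, against 26.6, 28.8, 29.9 and 26.7 CPM in marrow. Its log2 fold change was 2.05 ± 0.17 (edgeR, adjusted p = 2.33e-06) and 1.86 ± 0.16 (adjusted p = 3.41e-07). Rpl12 rose by 2.02 ± 0.19 in PyMT TANs and 1.90 ± 0.17 in PyMT-Cxcr2-/- TANs, from 18.3 to 23 CPM in marrow to 52.6 to 93.9 and 52.9 to 85.3 CPM. Both genes were separated from marrow in all 8 TAN libraries, and PyMT TANs 1 and PyMT-Cxcr2-/- TANs 3 and 4 were the low ones in each. Rpl3 shares 75.8% of its mRNA windows with other genes and overlaps Gm22077 on the same strand.

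Rpl35, which sits at the exit of the peptide tunnel, rose by 1.88 ± 0.23 (edgeR, adjusted p = 3.33e-05) and 1.75 ± 0.19 (adjusted p = 2.90e-06). Rpl32 and Rpl14, further proteins of the large subunit, rose by 1.79 ± 0.22 and 1.77 ± 0.16 in PyMT TANs and by 1.48 ± 0.16 and 1.51 ± 0.14 in PyMT-Cxcr2-/- TANs. Rpl32 overlaps Cand2, Rpl12 overlaps Lrsam1 and Rpl35 overlaps Arpc5l and Wdr38 on the opposite strand, where the counts depend on a strand setting not given in the sources used here. Rpl22, an RNA-binding member with no shared window and no overlap, rose by 1.52 ± 0.20 (adjusted p = 6.64e-05) and 1.08 ± 0.18 (adjusted p = 0.000138).

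The stalk, which recruits the elongation factors to the ribosome, was higher for 3 of 3 proteins in each TAN type, beside 30.1% and 34.4% of all genes. Rplp0 (chr5:115559467-115563727, plus strand) gave 146.7, 196.3, 222.8 and 209.9 CPM in PyMT TANs, then 204.0, 190.1, 162.0 and 161.8 CPM in PyMT-Cxcr2-/- TANs, against 90.2, 84.2, 81.4 and 89.7 CPM in marrow. Rplp0 rose by 1.24 ± 0.14 (edgeR, adjusted p = 2.56e-05) and 1.19 ± 0.11 (adjusted p = 4.41e-07), and Rplp1 by 1.44 ± 0.20 and 1.19 ± 0.14. Rplp2 rose by 0.99 ± 0.12 in PyMT TANs and 0.69 ± 0.14 in PyMT-Cxcr2-/- TANs. Without PyMT-Cxcr2-/- TANs 1 the latter was 0.56, and in the fit of all 12 libraries 0.55, and no longer reached the fold of 1.5.

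Of the small subunit proteins, 14 of 31 were called higher in PyMT TANs (45.2%, beside 30.1% of all genes) and 12 in PyMT-Cxcr2-/- TANs (38.7%, near the 34.4% of all genes). Rpsa (chr9:120127689-120132369, plus strand), also known as the laminin receptor, gave 128.9, 173.6, 189.4 and 202.8 CPM in PyMT TANs, then 175.6, 161.4, 128.5 and 128.3 CPM in PyMT-Cxcr2-/- TANs, against 78.8, 73.7, 64.4 and 75.1 CPM in marrow. All TAN libraries were above all marrow libraries. Rpsa rose by 1.32 ± 0.15 (edgeR, adjusted p = 2.65e-05) and 1.16 ± 0.12 (adjusted p = 2.25e-06).

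**Figure D3:**
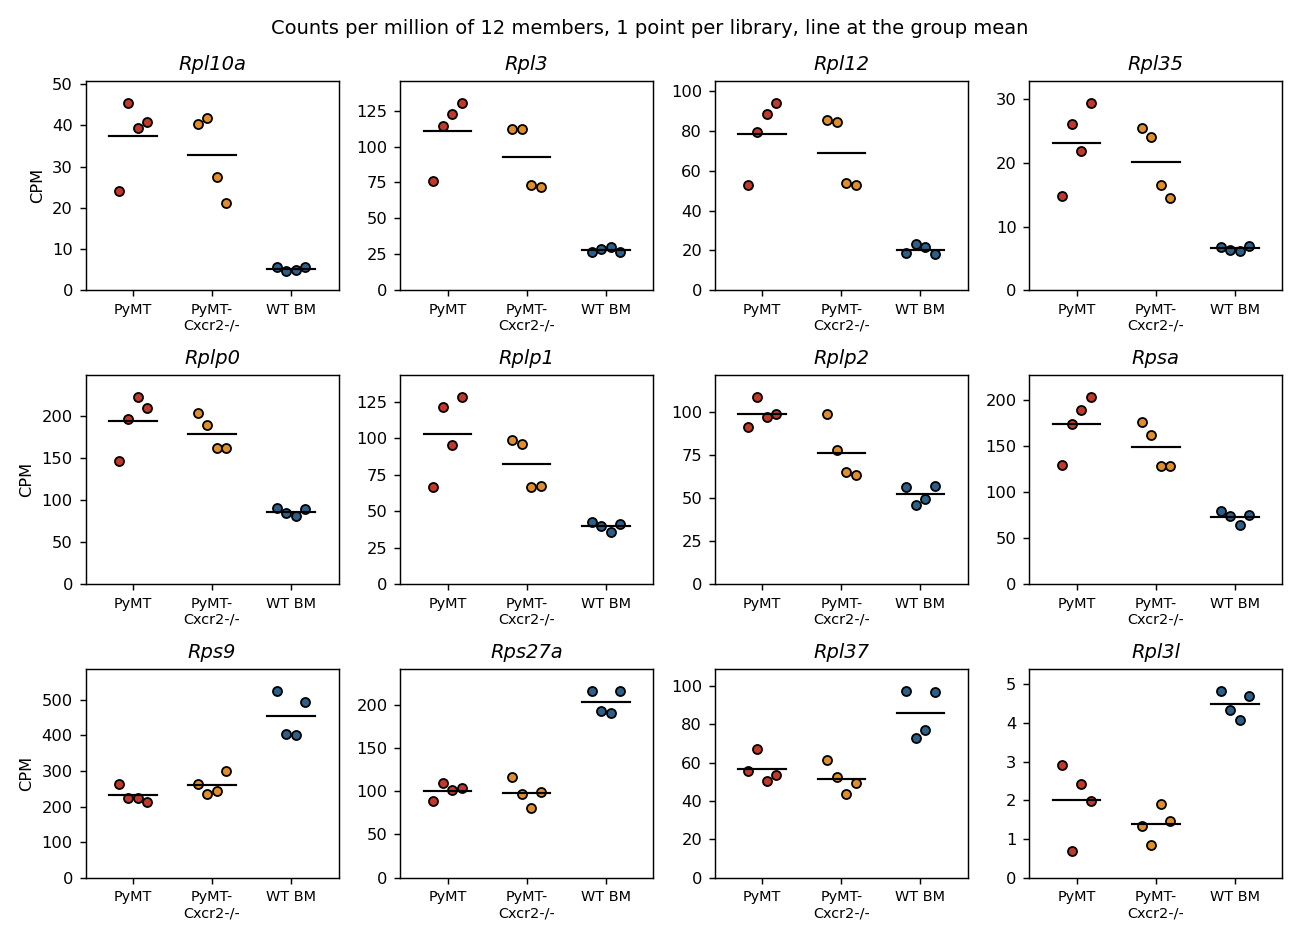
CPM (with TMM factors) of 12 members in each library, with a line at the group mean (n = 4). The upper 2 rows show members higher in TANs, such as Rpl10a at 21.2 to 45.3 CPM in TANs and 4.71 to 5.72 in marrow, and the lowest row shows members lower there, such as Rps9 at 212.1 to 300.2 and 401.3 to 524.5 CPM.

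A few members went the other way. Rps9, a protein at the mRNA entry of the small subunit and the study's control gene for quantitative PCR together with Gapdh, gave 263.6, 224.7, 224.2 and 212.1 CPM in PyMT TANs, then 263.2, 235.1, 242.8 and 300.2 CPM in PyMT-Cxcr2-/- TANs, against 524.5, 404.0, 401.3 and 493.0 CPM in marrow. All TAN values were below all marrow values. Rps9 (chr7:3703993-3706897, plus strand) fell by 0.91 ± 0.13 on the log2 scale in PyMT TANs (edgeR, adjusted p = 0.000114) and by 0.67 ± 0.12 in PyMT-Cxcr2-/- TANs (adjusted p = 0.000235). With library totals the values were -0.47 and -0.49, and with adjustment for GC content and mRNA length -0.53 and -0.38, below the fold of 1.5 in each case. Gapdh, the glycolytic enzyme used beside it, fell by 0.70 ± 0.16 in PyMT TANs (adjusted p = 0.00309; with library totals -0.26, adjusted p = 0.111), and its value of -0.28 ± 0.12 in PyMT-Cxcr2-/- TANs was not called. Rps9 counts were 35.5% to 48.2% of Gapdh counts in PyMT TANs, then 32.9% to 40.1% in PyMT-Cxcr2-/- TANs, against 44.8% to 51.6% in marrow. The paper's main text reports PCR values for mammary gland and tumor, which these libraries of sorted neutrophils do not cover.

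Rps27a, which is made as a fusion of ubiquitin and a small subunit protein, gave 88.2, 109.3, 101.6 and 103.2 CPM in PyMT TANs, then 116.0, 97.1, 80.5 and 99.4 CPM in PyMT-Cxcr2-/- TANs, against 215.8, 192.5, 190.8 and 215.8 CPM in marrow. The groups did not overlap. It fell by 0.95 ± 0.12 (edgeR, adjusted p = 3.46e-05) and by 0.92 ± 0.12 (adjusted p = 1.06e-05), and in PyMT TANs by 0.50 with library totals and by 0.40 after the length adjustment, both no longer called. In PyMT-Cxcr2-/- TANs the length adjustment left -0.46, also not called. Rps27a overlaps Clhc1 on the opposite strand and shares 52.4% of its windows.

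Rpl23a, a large subunit protein at the tunnel exit, gave 1.31, 1.44, 3.34 and 2.12 CPM in PyMT TANs, then 2.07, 2.13, 2.0 and 1.69 CPM in PyMT-Cxcr2-/- TANs, against 6.36, 3.68, 3.27 and 6.59 CPM in marrow. PyMT TANs 3 overlapped the lowest marrow library. Rpl23a shares 79.1% of its mRNA windows with other genes, holds 3 snoRNA genes and overlaps Snord42b on the same strand and Tlcd1 on the opposite strand. It fell by 1.21 ± 0.41 in PyMT TANs (edgeR, adjusted p = 0.0246), a call lost without PyMT TANs 2, WT BM 1 or WT BM 4 (adjusted p = 0.0517, 0.0676 and 0.0753), and by 1.2 ± 0.27 in PyMT-Cxcr2-/- TANs (adjusted p = 0.00131). In PyMT TANs Rpl23a was -0.75 with library totals and -0.44 after the length adjustment, neither called. Rpl37, also of the large subunit, fell by 0.60 ± 0.13 in PyMT-Cxcr2-/- TANs (adjusted p = 0.00105) and was -0.54 ± 0.14 in PyMT TANs, under the fold of 1.5. The Rpl37 call was lost without PyMT-Cxcr2-/- TANs 2, 3 or 4 or WT BM 1 or 4, with values from -0.58 to -0.49, and it was -0.41 with library totals, -0.39 with exon length and -0.14 (adjusted p = 0.387) with GC content and mRNA length adjusted. In PyMT TANs Rpl37 passed the fold of 1.5 with RLE factors, without a filter, in the fit of all libraries and by DESeq2 (-0.62 to -0.60), and without PyMT TANs 2, WT BM 2 or WT BM 3 (-0.66 to -0.63).

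The paralogs were read beside their partners. Rpl3l (chr17:24727820-24736143, plus strand), known from heart and skeletal muscle, gave 2.91, 0.69, 2.42 and 2.0 CPM in PyMT TANs, then 1.34, 0.85, 1.92 and 1.46 CPM in PyMT-Cxcr2-/- TANs, against 4.83, 4.33, 4.07 and 4.71 CPM in marrow. It fell by 1.09 ± 0.41 (edgeR, adjusted p = 0.0408) and 1.55 ± 0.26 (adjusted p = 0.00013) while Rpl3 rose. The call in PyMT TANs was lost without PyMT TANs 4 and without any 1 of the 4 marrow libraries, with adjusted p from 0.0619 to 0.0807, with library totals (-0.66), with upper quartile factors (adjusted p = 0.0582) and with GC content adjusted together with mRNA length (0.0674) or exon length (0.0765). Rpl3l counts were 13.6% to 18.1% of Rpl3 counts in marrow, 0.609% to 3.84% in PyMT TANs and 0.756% to 2.61% in PyMT-Cxcr2-/- TANs, and the 8 TAN values lay below the 4 marrow values. Rpl3l shares no window with another gene, whereas Rpl3 shares 75.8% of its windows.

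Rpl22l1, the partner of Rpl22, was at 7.84 to 13.7 CPM in PyMT TANs, then 8.94 to 11.2 in PyMT-Cxcr2-/- TANs, against 9.17 to 11.3 in marrow, and was not called. As a part of Rpl22 counts it was 38.1% to 49.2%, 45.4% to 69.7% and 94.5% to 137%, again with no overlap between TANs and marrow. Rps27l, a paralog of Rps27 induced by p53, rose by 1.02 ± 0.24 in PyMT TANs (edgeR, adjusted p = 0.00379) and was 0.43 ± 0.21 in PyMT-Cxcr2-/- TANs (adjusted p = 0.0879). Rps27 itself was at 127.8 to 150.8, 101.6 to 129.8 and 145.3 to 177.4 CPM and not called. Rpl36al was too low to compare, at 0 to 1.24 CPM, beside Rpl36a, which rose by 0.88 ± 0.22 in PyMT TANs and 0.74 ± 0.18 in PyMT-Cxcr2-/- TANs. Rpl7l1 gave 30.3 to 39.8, 24.5 to 30.3 and 32.5 to 36.5 CPM, and neither it nor Rpl7 was called.

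Across the 12 libraries the members moved largely together. The correlation of a member's log2 level with the median of the other members was 0.866 at the median over members, above 0.8 for 52 of 83 and below 0 for 14. Rps15a had the highest at 0.98, and Rps9 the lowest at -0.778, followed by Rpl3l at -0.658 and Rps27a at -0.582. These points share their libraries, depth and the difference between tumor and marrow, so the values are a description.

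The third comparison asks what the loss of Cxcr2 changes in tumor neutrophils. None of the 83 members was called, beside 1.98% of 18463 genes (1.38% higher and 0.596% lower). At an unadjusted p under 0.05 there were 13 members, all lower in PyMT-Cxcr2-/- TANs, beside 7.58% of all genes higher and 7.59% lower. DESeq2 and the fit of all 12 libraries each called 1 member lower, Rps19bp1. In sign, 81 of 83 members lay below 0, and 44.0% of all genes lay above it. The members moved largely together, so these signs are not separate observations. By share of counts, PyMT-Cxcr2-/- TANs 1 and 2 (0.646% and 0.607%) lay within the range of PyMT TANs (0.546% to 0.798%). PyMT-Cxcr2-/- TANs 3 and 4 (0.437% and 0.429%) lay below it. The median was -0.23, against -0.07 over all genes, with quartiles of -0.37 and -0.17. With library totals the members were at -0.42 and all genes at -0.26, and the split of all calls turned from 255 higher and 110 lower to 206 and 391. The groups did not overlap for 7 members, all lower, beside 6.34% of all genes higher and 5.7% lower. These were Rps13, Rpl30, Rps25, Rpl35a, Rps3a1, Rpl7l1 and Rps19bp1. Of the neutrophil markers 5 of 8 rose in PyMT-Cxcr2-/- TANs, and the 1 that fell was Cxcr2, the deleted gene, as the genotype fixes. Of the immature neutrophil markers 3 of 6 tested were higher, with summed levels of 1930 to 6710 CPM beside 430 to 739 CPM in the PyMT group. The part of that shift in the members' values was not tested.

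Rps19bp1 (chr15:80260615-80264315, minus strand) gave 5.39, 8.65, 5.79 and 3.70 CPM in PyMT TANs, then 3.07, 2.51, 2.33 and 3.06 CPM in PyMT-Cxcr2-/- TANs, against 2.70, 2.76, 2.12 and 2.36 CPM in marrow. Its log2 fold change between the TAN types was -1.10 ± 0.32 (edgeR, adjusted p = 0.104; 0.0362 in the fit of all 12 libraries and 0.028 by DESeq2). Rpl13a, a large subunit protein also known from the GAIT complex of translational control, gave 5.23, 5.79, 13.6 and 5.12 CPM in PyMT TANs, then 3.69, 5.18, 2.64 and 3.84 CPM in PyMT-Cxcr2-/- TANs and 4.82 to 6.42 CPM in marrow. Its value was -0.96 ± 0.37 (adjusted p = 0.233), and PyMT TANs 3 stood apart from the other 3. Rpl13a holds 4 snoRNA genes and shares exons with Gm45713, Mir5121 and Snord33. Rps27l was -0.66 ± 0.29 (adjusted p = 0.306), and Rps3a1 -0.48 ± 0.17 (adjusted p = 0.175). Rps9 at 0.17 ± 0.13 and Rpl27 at 0.04 ± 0.19 were the only members above 0.

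Genes around the ribosome were counted from lists of its partners. Of 40 ribosome biogenesis factors, 35 (87.5%) were called higher and 3 lower in PyMT TANs, beside 30.1% and 23.2% of all genes. For PyMT-Cxcr2-/- TANs these numbers were 34 (85.0%) and 2, beside 34.4% and 25.1% of all genes. The list's median log2 fold changes were 2.11 and 1.61 in the same order. Tcof1, which takes part in transcription of ribosomal DNA, had 59.6 CPM in PyMT TANs, then 43.5 in PyMT-Cxcr2-/- TANs and 3.48 in marrow on average and rose by 4.17 and 3.78. Utp20, of the small subunit processome, rose by 4.15 and 3.77, and Noc3l, a large subunit assembly factor, by 3.93 and 3.53. These 3 changes were larger than that of any member.

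Of RNA polymerases I and III, which make ribosomal RNA, 7 of 27 subunits were higher (25.9%) and 7 lower (25.9%) in PyMT TANs, and 8 (29.6%) and 7 in PyMT-Cxcr2-/- TANs, shares near those of all genes (30.1% and 23.2%, then 34.4% and 25.1%). Polr1b rose by 2.92 and 2.54, whereas Polr1a, the largest subunit of polymerase I, fell by 2.74 and 2.05. Of 28 tested regulators of TOP mRNAs and mTORC1, 8 rose (28.6%) and 7 fell (25%) in PyMT TANs, and 7 (25%) and 6 (21.4%) in PyMT-Cxcr2-/- TANs, also near all genes. Larp1, which binds the TOP motif, rose by 1.92 and 1.89, Myc, a transcription factor of ribosomal genes, by 3.46 and 3.60, and Mlst8, a subunit of mTORC1, fell by 3.36 and 3.23.

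Over all genes, 30.1% were called higher and 23.2% lower in PyMT TANs, then 34.4% and 25.1% in PyMT-Cxcr2-/- TANs. Among elongation factors 5 of 8 (62.5%) were higher and 0 lower in each TAN type. Eef1a1, 1 of these 5, was at 1013 CPM in PyMT TANs, then 888.6 in PyMT-Cxcr2-/- TANs and 413.8 in marrow on average. Of 28 initiation factors, 13 (46.4%) and 11 (39.3%, near all genes) were higher and 0 lower, led by Eif3b at 2.11 and 1.83. Other known TOP mRNAs were higher in 7 and 4 of 10 (70.0%, then 40.0%, near all genes), and Npm1, a nucleolar chaperone, rose by 1.91 and 1.57. Rack1, a scaffold on the small subunit, rose by 2.02 and 1.93, and Fau, which encodes a ribosomal protein fused to a ubiquitin-like protein, was not called. Of 12 ribosome quality control genes 5 rose and 3 fell in PyMT TANs and 4 and 3 in PyMT-Cxcr2-/- TANs, with Abce1, which splits ribosomes, up by 2.69 and 1.97. Of noncoding snoRNA host genes, 5 of 11 were higher and 0 lower in PyMT TANs, and 4 of 10 higher and 1 lower in PyMT-Cxcr2-/- TANs.

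Mitochondrial ribosomes and the respiratory chain were counted beside the members, with no test between the lists. Of the mitochondrial ribosomal proteins 26 of 74 were higher and 10 lower in PyMT TANs and 25 of 75 higher and 13 lower in PyMT-Cxcr2-/- TANs, with medians of 0.54 and 0.17. The higher calls were 35.1% and 33.3% of those tested, beside 30.1% and 34.4% of all genes. Of 78 nuclear-encoded respiratory chain genes, 5 were higher and 31 lower (39.7%, beside 23.2% of all genes), and 6 and 33 (42.3%, beside 25.1%), with medians of -0.41 and -0.51. Between the TAN types no gene of these lists was called except Mrpl52, a protein of the mitochondrial large subunit, at -1.71 (edgeR, adjusted p = 0.0113).

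**Figure D4:**
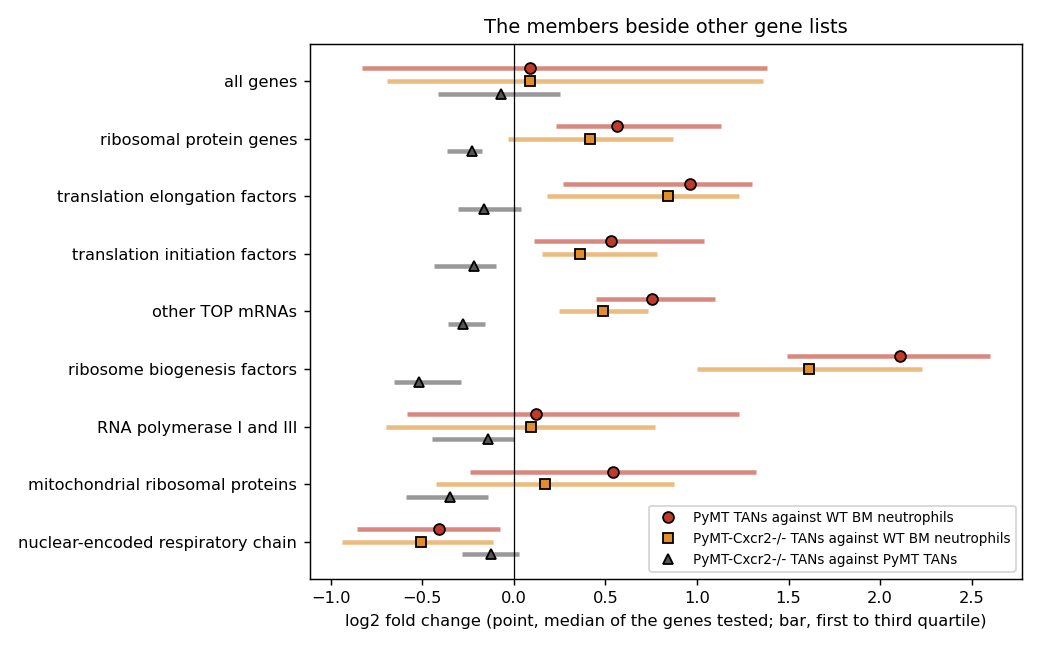
Median log2 fold change (points) and lower to upper quartile (bars) of the members, of other gene lists and of all genes tested in the 3 comparisons. Against marrow the medians of the members are 0.57 and 0.41, those of the biogenesis factors 2.11 and 1.61, and those of the respiratory chain genes -0.41 and -0.51.

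Length and GC content were examined as a possible bias, since ribosomal protein mRNAs are short. The members had a median mRNA of 886 bases (345 to 5179) and 51.6% GC, and all genes tested in the first comparison 2500 bases and 49.5% GC. Over all genes the median log2 fold change of PyMT TANs rose with length, from -0.43 up to 500 bases to 0.26 over 4000. The members' medians lay above those of all genes in every length class. The 11 members up to 500 bases had a median of 0.48, the 41 above that and up to 1000 bases 0.59, and the 25 above that and up to 2000 bases 0.52, where all genes lay at -0.43, -0.15 and 0.06. Other protein-coding genes with an mRNA of at most 1000 bases were more often lower (227 of 736) than higher (169), and of the 52 members of that length 25 were higher and 3 lower.

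Across members the correlation of the PyMT TAN fold change with log2 length was 0.15 (Spearman 0.13) and with GC content 0.11 (Spearman 0.13), over 83 genes that share their libraries. In PyMT-Cxcr2-/- TANs the members' medians in the same 3 length classes were 0.34, 0.44 and 0.40, and those of all genes -0.35, -0.22 and 0.01. When each library's trend with GC content and mRNA length was taken out, 61 members were higher and 0 lower in PyMT TANs (median 1.06), and 49 and 2 in the PyMT-Cxcr2-/- group (median 0.76). Between the TAN types none was called under that adjustment, and the median was -0.30.

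**Figure D5:**
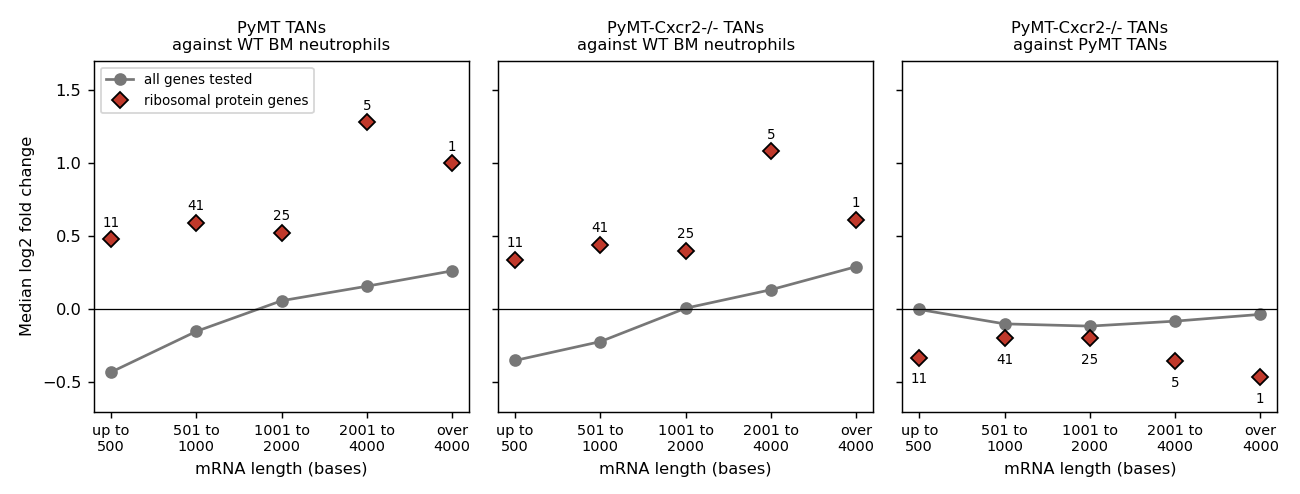
Median log2 fold change by length of the principal mRNA for all genes tested (grey) and for the members (red, with their number) in the 3 comparisons. In the first panel all genes run from -0.43 to 0.26 and the members lie between 0.48 and 1.28 in every class, the last 2 classes holding 5 members and 1.

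Shared sequence was examined next. The 72 members with a shared window were higher in 32 cases (44.4%, beside 30.1% of all genes) and lower in 3 in PyMT TANs. Of the 8 with neither a shared window nor an exon overlap, 6 were higher and 1 was lower in PyMT TANs, and 3 and 1 in PyMT-Cxcr2-/- TANs. The 30 members that hold a snoRNA gene in their locus, whose reads a total RNA library can add, were higher in 16 cases and lower in 1 (median 0.61), and the other 53 in 23 and 3 (median 0.57).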

How the data were processed

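RNA of 12 libraries (3 groups of 4) was sequenced by the authors after rRNA depletion as directional paired-end reads, trimmed, aligned to mm10 with STAR and counted per gene with HTSeq. The deposited values are raw counts per gene. The annotation release and strand setting of the counting are not given in the sources used here. HTSeq's classes of unassigned reads were left out of library sizes. No feature was found for 32.0% to 52.5% of all reads.

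Gene names, roles of loci and lengths came from GENCODE M21, which matched 55154 of 55335 IDs. edgeR 4.0.16 (R 4.3.3) was run on each pair of groups with filterByExpr, TMM factors and glmQLFit/glmQLFTest with robust estimation, and p-values were adjusted by Benjamini-Hochberg over all genes tested. The call needed a fold of at least 1.5 and an adjusted p under 0.05. SE is the absolute log2 fold change divided by the root of F. CPM uses TMM factors over all 12 libraries, and RPKM the length of the principal mRNA. A level of 3 counts, the limit that a count of 0 allows, was 0.0584 to 0.12 CPM and covers counting error only. DESeq2 1.42.0, other factors and filters, adjustment for GC content and length (splines with 4 degrees of freedom), a replicate block and leaving out each library were alternatives. The exon length adjustment and the members with unshared sequence were added after seeing the data. The script was tested on simulated data, with 200 planted genes drawn from all genes tested. At a planted log2 change of 1, 22.5% were recovered in PyMT TANs against marrow and 51.5% in PyMT-Cxcr2-/- TANs against marrow. Between the TAN types 20.0% were recovered, so a gene not called there can still differ. Recovery was not computed for the members alone, and these rates need not hold for them. With a planted change of 0, there were 0 calls.

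The members and lists were chosen with earlier results of these data known. Named were, in each comparison, the 5 members with the highest and the 5 with the lowest fold change, those called against the median, the 3 highest and lowest RPKM, Rps9 with Gapdh, paralogs with their partners, the stalk genes and Rpsa, and from each other list the largest called changes. Eef1a1, Polr1b, Larp1, Rps15a, Rack1 and Fau, and the members not overlapping between the TAN types, were named after their values were seen.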

Additional observations from a re-analysis of the deposited data

Results flagged for a closer look

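In groups of 4, a highest or lowest library was singled out where its gap to the next, as a part of the group's range, was past Dixon's critical value, which chance gives in about 1 in 20 groups. Of 114 groups tested, 5 (4.39%) were singled out. Rpl13a was at 13.6 CPM in PyMT TANs 3, with the next at 5.79. Rps27 was at 151 CPM in PyMT TANs 1, with the next at 131. Rpl22l1 was at 11.2 CPM in PyMT-Cxcr2-/- TANs 2, with the next at 9.18. Rpl7l1 was at 36.5 CPM in WT BM 1, with the next at 33.0. The share of counts on the members was 0.396% in WT BM 4, with the next at 0.354%.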

How the results depend on the processing

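In PyMT TANs against marrow, 39 members higher, 4 lower and a median of 0.57 became 62, 0 and 1.02 with library totals, 61, 0 and 1.06 with GC content and mRNA length adjusted, 59, 0 and 1.03 with the replicate block added to that adjustment, and 2 lower with a median of 0.84 with exon length. In PyMT-Cxcr2-/- TANs against marrow, 5 lower and a median of 0.41 became 3 and 0.60, 2 and 0.76, and 1 and 0.75 under the first 3, and 12 lower by adjusted p alone. Of the 7 ribosomal proteins with unshared and separate sequence, 5 were higher and 1 lower (median 0.92) in PyMT TANs and 3 and 1 in PyMT-Cxcr2-/- TANs. Between the TAN types 1 was lower in the fit of all libraries and 1 by DESeq2. The mean share became 0.301%, 0.233% and 0.178% of all reads in PyMT TANs, PyMT-Cxcr2-/- TANs and marrow, and 0.394% of protein-coding nuclear counts in marrow. The cause was not tested where the construction does not show it.

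Leaving out 1 library at a time gave 34 to 43 higher, 2 to 4 lower and medians of 0.476 to 0.6 in PyMT TANs, the 2 without WT BM 1 or WT BM 4, 28 to 36, 4 to 6 and 0.359 to 0.537 in PyMT-Cxcr2-/- TANs, and 0, 0 and -0.313 to -0.138 between the TAN types. Between the TAN types, values near 0 changed sign. Rpl23a (-0.06) was 0.00784 without a filter, 0.0345 with the replicate block and 0.00169 by DESeq2, and -0.189 to 0.282 without 1 library. Rpl27 (0.04) was -0.16 with library totals, -0.0736 with GC content and mRNA length adjusted, -0.0364 with the block added, -0.0406 with exon length and -0.0769 to 0.184 without 1 library. Rps27a (-0.04) was 0.0122 with RLE factors, 0.0231 without a filter, 0.0151 by DESeq2 and -0.122 to 0.0665 without 1 library. Rps24 (-0.08) was -0.171 to 0.0305 without 1 library, and Rps9 (0.17) was -0.0225 with library totals. Of 462 further values of named genes in PyMT TANs against marrow, 429 kept their direction and call, 26 lost the call and 7 gained it. Of 399 in PyMT-Cxcr2-/- TANs, 381 kept both and 18 lost the call.

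The replicate numbers are shared between groups of different animals. Libraries with the same number deviated from their group means with an average correlation of -0.0416 (-0.205 to 0.0841), so the numbers were not taken as pairs. With the replicate block, 38 members were higher and 3 lower in PyMT TANs (median 0.556), 32 and 5 in PyMT-Cxcr2-/- TANs (0.394), and 0 and 0 between the TAN types (-0.218), where over all genes 4 were called higher and 9 lower, against 255 and 110 without it. The block ended the call of Rpl23a in PyMT TANs (adjusted p = 0.0509), and with the length adjustment also that of Rpl23a in PyMT-Cxcr2-/- TANs (-0.60, adjusted p = 0.0644), while Rpl3l in PyMT TANs, not called under the length adjustment alone, was at 0.0729.

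Depth limits Rpl36al, Rps10, Rpl3l and Rpl23a, whose levels lie within a few CPM.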
